A study of Mus musculus with 12 samples.

Results

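Microfold (M) cells are specialised epithelial cells over lymphoid tissue that carry particles from a lumen to the immune cells beneath. They form when RANKL, the cytokine encoded by Tnfsf11, engages its receptor RANK, encoded by Tnfrsf11a, and activates the non-canonical NF-kB subunit RelB and the transcription factors Spi-B and Sox8. In the mammary gland the same ligand and receptor carry the progesterone signal from hormone-sensing cells to the alveolar progenitors next to them. Spib is otherwise best known from B lymphocytes and plasmacytoid dendritic cells.

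The 9 genes described here, out of 47593 in the deposited values, are Spib, the RANK axis genes Tnfsf11, Tnfrsf11a and Relb, the transcription factor gene Sox8, and Ccl20, Gp2, Tnfaip2 and Clu, which M cells express. They were chosen by name, with earlier values of these tumors known, in particular the high Spib and Ccl20 of tumor 9. The levels in tumor 9, and the relations between the genes that follow from them, are therefore a description and were given no test.

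RNA came from 12 mammary tumors of 9 untreated female mice of 1 condition, labelled MADM RG;GR alleles on a mixed background, with tumors 3 and 4 from 1 mouse and tumors 10, 11 and 12 from another. In these MADM-mutant mice the Brca1 flox and p53 KO alleles lie on the chromosome with the TG cassette, and MMTV-Cre, active in mammary epithelium, drives the exchange that yields sparse GFP-labelled null cells in a heterozygous animal. Each piece of tumor tissue also holds cells that are not null, the age of each mouse was not among the labels, and no normal gland was analysed here. Values are TPM, transcript abundances corrected for gene length and scaled to a fixed total. In such bulk tissue, more cells of a type and more RNA per cell cannot be told apart.

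Between 21415 and 23443 genes were above 0 TPM in a tumor, and the number of reads behind the values is unknown. Of 6 epithelial genes (Epcam, Cdh1, Krt8, Krt18, Cldn3 and Cldn7) the median was 387 TPM in tumor 9 and between 313 and 672 TPM in 9 other tumors. It was 0.195 TPM in tumor 2 and 3.39 TPM in tumor 8, with Epcam listed at 0 and at 2.03 TPM. The 6 genes summed to 1.38 TPM in tumor 2 and to 154 TPM in tumor 8, of which Krt8 gave 128 TPM. The sum in tumor 9 was 2569.8 TPM, just under the 2599 to 7609.5 TPM of the other 9. Except for Epcam, at 914 TPM, each of the 6 genes was lower in tumor 9 than in these 9 tumors. The labels give both samples as mammary gland tumors like the rest. Tumor 2 instead had a summed 1997 TPM over 8 B lymphocyte genes, so relations between genes are given with and without it.

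Of the 9 genes, 8 reached a mean of 1 TPM over the 9 mice. The exception was Gp2, and the 8 also had means above 1 TPM over the 8 mice without tumor 9. In tumor 9, 7 of these 8 genes had their highest value of the 12 tumors, where 14.2% of the 16802 genes with that mean did. A stricter count asked for a value at least 2 above the next highest tumor on the log2(TPM + 1) scale. It held for 6 of the 8, namely Spib, Ccl20, Sox8, Tnfaip2, Relb and Clu, and for 2.04% of all genes. None of the 8 was at least 2 below the lowest other tumor, as 0.268% of all genes were. Since tumor 9 was known when the genes were chosen, nothing is read from the distance to these shares. Together the 9 genes took 2.98% of all TPM in tumor 9 and between 0.00817% and 0.139% in the other tumors.

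**Figure D1:**
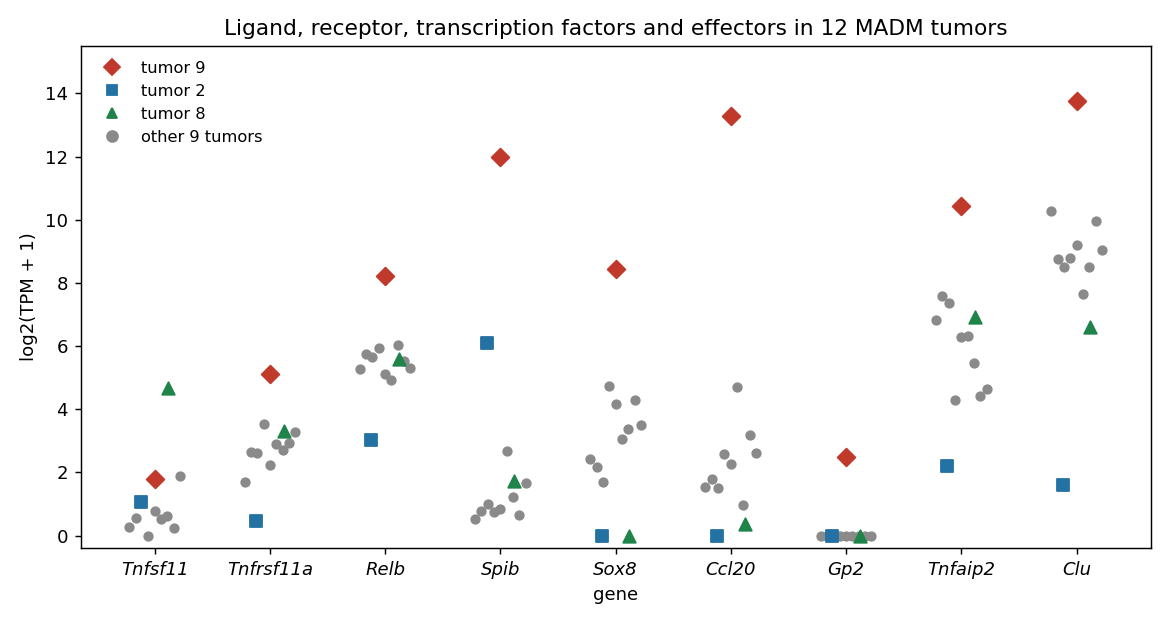
The level of each of the 9 genes (x axis) in 12 tumors (points) as log2(TPM + 1) (y axis). Tumor 9 is the highest for every gene but Tnfsf11, which is highest in tumor 8, and tumor 2 is the next highest for Spib.

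The ligand did not share the pattern. Tnfsf11 (ENSMUSG00000022015, GRCm38 chromosome 14 from 78277445 to 78308043, minus strand) reached 24.4 TPM in tumor 8, followed by 2.70 TPM for tumor 12 and 2.45 TPM for tumor 9. In 7 of the 12 tumors it was under 1 TPM, and tumor 5 listed it at 0. Over the other 11 tumors the median was 0.550 TPM, so tumor 9 lay inside their range. The tumor with the most Tnfsf11 was the one in which Ccl20 was at 0.285 TPM and Sox8 at 0.

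The receptor was present in almost all tumors. Tnfrsf11a (ENSMUSG00000026321, chromosome 1 from 105780718 to 105847981, plus strand) was at 33.7 TPM in tumor 9, against a lowest value of 0.385 TPM in tumor 2, a median of 5.55 TPM and a highest of 10.5 TPM in tumor 5 among the others. Tumor 9 was 3.20-fold above tumor 5, less than the 4.62-fold or more of the 6 genes with the wider gap. On the log2(TPM + 1) scale the other 8 mice had 2.47 ± 1.00 (SD, n = 8 mice), and tumor 9 lay 2.65 above that mean. Tnfrsf11b, a secreted decoy that binds the ligand and keeps it from the receptor, was at 1815 TPM in tumor 9 and at most 106 TPM, in tumor 12, elsewhere. The level of the decoy on the TPM scale exceeded that of both ligand and receptor in 10 of the 12 tumors, all but 2 and 8.

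Relb, the NF-kB subunit through which RANK acts in M cells, was lowest in tumor 2. Relb (ENSMUSG00000002983, chromosome 7 from 19606217 to 19629438, minus strand) was at 299 TPM in tumor 9. The other tumors ran from 7.21 TPM in tumor 2, with a median of 45.1 TPM, to 64.7 TPM in tumor 10. Outside tumors 2 and 9 all values lay between 29.1 and 64.7 TPM, a narrow range. The other 8 mice had 5.14 ± 0.92 on the log2(TPM + 1) scale, and tumor 9 lay 3.08 above.

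Spib had the largest difference of the 9 genes after Ccl20. Spib (ENSMUSG00000008193, chromosome 7 from 44525993 to 44532071, minus strand) reached 4015 TPM in tumor 9, followed by 67.4 TPM for tumor 2, 5.37 TPM for tumor 7 and 2.33 TPM for tumor 8. In 6 tumors it was under 1 TPM, and the median of the other 11 tumors was 0.983 TPM. Tumor 9 was 59.6-fold above tumor 2, and 10.13 above the mean of the other 8 mice on the log2(TPM + 1) scale, which was 1.84 ± 1.85 (SD, n = 8 mice). Its relative Spi1, which encodes PU.1 and is expressed by myeloid cells, stood at 51.0 TPM in tumor 9, inside the 19.2 to 81.2 TPM of the others. None of 8 ETS genes related to Spib was highest in tumor 9.

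Sox8 encodes a transcription factor that M cells need to mature. Sox8 (ENSMUSG00000024176, chromosome 17 from 25565892 to 25570686, minus strand) was at 349.6 TPM in tumor 9. It was listed at 0 in tumors 2 and 8, and the remaining ones spread from 2.22 TPM (tumor 4) to 25.5 TPM (tumor 5). Tumor 9 was 13.7-fold above tumor 5.

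Ccl20 encodes the chemokine that draws cells with the receptor CCR6 towards the epithelium over lymphoid follicles. Ccl20 (ENSMUSG00000026166, chromosome 1 from 83116766 to 83119167, plus strand) was at 10009 TPM in tumor 9, the second most abundant transcript of that tumor after Clu. The other tumors ran from 0 in tumor 2, with a median of 2.45 TPM, to 25.0 TPM in tumor 7. Tumor 9 was 399.6-fold above tumor 7 and shared no part of its range with any other tumor. Transcripts of Ccr6, the receptor, were at 19.7 TPM in tumor 9 and at most 3.12 TPM, in tumor 3, elsewhere.

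Among 33 chemokine ligands, Ccl20 was the most abundant in tumor 9 and ranked 11 to 29 in the other tumors. It gave 75.3% of their summed 13284 TPM in tumor 9, and between 0% and 2.27% of sums between 73.1 and 2466 TPM elsewhere. Besides Ccl20, the ligands Ccl6, Ccl9 and Ccl19 lay at least 2 above the next tumor on the log2(TPM + 1) scale. These were 4 of the 30 ligands with a mean of 1 TPM, against the 2.04% of all genes. Ccl20 was chosen with its value in tumor 9 known, and Ccl19 reached that mean only through tumor 9. Ccl6 and Ccl9 are also in the list of other M cell genes below. Nothing is therefore read from this count.

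**Figure D2:**
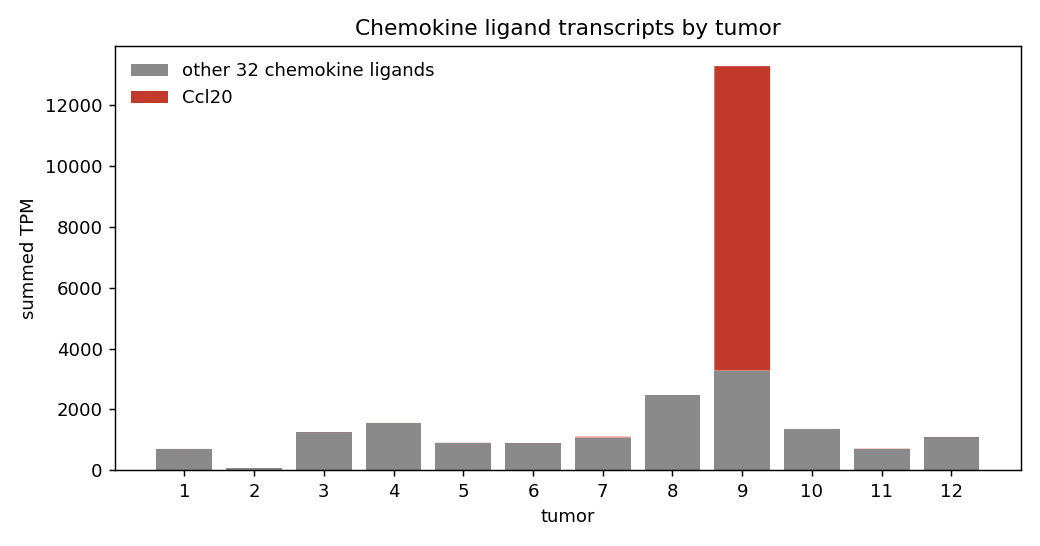
Summed TPM of 33 chemokine ligands (y axis) in each of the 12 tumors (x axis), with Ccl20 in red and the other 32 in grey. Only in tumor 9 can the Ccl20 part be seen well, as 10009 of 13284 TPM.

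The remaining genes encode M cell surface and cytoplasmic proteins. Gp2, the glycoprotein by which M cells bind bacteria and the marker most used to define the mature cell (ENSMUSG00000030954, chromosome 7 from 119442537 to 119459285, minus strand), was at 4.56 TPM in tumor 9 and listed at 0 in the other 11. Its level in tumor 9 was thus the second lowest of the 9 genes, above Tnfsf11, and no fold can be given. Tnfaip2 (ENSMUSG00000021281, chromosome 12 from 111442469 to 111455018, plus strand), induced by tumor necrosis factor and needed for membrane protrusions, was at 1394 TPM in tumor 9. The other tumors ran from 3.59 TPM in tumor 2, with a median of 77.2 TPM, to 189.7 TPM in tumor 3, a step of 7.35-fold to tumor 9.

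Clu encodes clusterin, a secreted chaperone made by many epithelia as well as M cells. Clu (ENSMUSG00000022037, chromosome 14 from 65968483 to 65981547, plus strand) was the most abundant transcript of tumor 9, at 13729.8 TPM. The lowest of the others was 2.07 TPM in tumor 2, the median 434 TPM and the highest 1232 TPM in tumor 1. Tumor 9 was 11.1-fold above tumor 1.

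Tumors of 1 mouse were also set side by side. Between tumors 3 and 4 the gap did not exceed 0.54 on the log2(TPM + 1) scale for any of the 9 genes, the widest being Tnfsf11. Among tumors 10, 11 and 12 the range was 2.20 for Ccl20, from 0.956 TPM in tumor 10 to 8.00 TPM in tumor 11, and 1.65 for Tnfsf11. It was 1.45 or less for the other 7 genes. The ranges over the other 8 mice, without tumor 9, were 2.91 or more for each gene but Gp2. Without tumor 2 as well, they ran from 1.04 for Relb to 4.73 for Sox8. A range over 7 or 8 mice is also wider than one over 2 or 3 tumors through its number of values.

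Spearman's rho was used to describe whether the genes went together, over 9 mice with tumors of 1 mouse averaged. A pooled Pearson r would be set by the distance of tumor 9 and is left out for pairs, and no p is given, since the genes were chosen with these values known. All pairs share the same libraries. Over the 9 mice the 36 pairs had a median rho of 0.43, with 30 positive. Of these, 8 pairs hold Gp2, whose order is set by tumor 9 alone, and the 28 pairs without it had a median of 0.29, with 22 positive. Values of 0.6 or more were found for 5 pairs, these being Ccl20 with Sox8 at 0.88, Relb with Tnfrsf11a at 0.78, Clu with Sox8 at 0.74, Spib with Tnfsf11 at 0.73 and Ccl20 with Tnfrsf11a at 0.62. No share over pairs of all genes was computed, so the counts and medians of pairs are not read as a result about the members. Spib and Ccl20 themselves had a rho of 0.13, although both were highest in tumor 9.

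Without tumor 9 fewer pairs had a positive rho. Gp2 is then at 0 throughout, and the same 28 pairs had a median rho of 0.00, with 14 positive and 14 negative values. Pearson's r over these 8 mice had a median of 0.25, with 19 positive pairs, 9 negative pairs and 6 at 0.6 or more. Over the 7 mice without tumors 2 and 9 its median was -0.016, with 13 positive pairs, 15 negative pairs and 0 at 0.6 or more. Inverse pairs of that size or more numbered 6 over the 8 mice and 6 over the 7 by Pearson's r. By Spearman's rho there were 3 inverse pairs of that size over the 8 mice and 4 over the 7, beside 4 and 2 positive ones. Spib was inverse to several of the others, at -0.86 with Clu (Pearson's r = -0.96), -0.55 with Sox8 and -0.55 with Relb, and at -0.24 with Ccl20. The inverse relations with Clu, Sox8 and Relb rest in part on tumor 2, second in Spib and lowest in Clu and Relb. Over the 7 mice without tumors 2 and 9 they were -0.79, -0.36 and -0.32, and that of Spib with Ccl20 was 0.14.

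A pair that kept a rho of 0.6 or more was Ccl20 with Sox8, at 0.83 over the 8 mice (Pearson's r = 0.71) and 0.75 over the 7 (Pearson's r = 0.59). Ccl20 was 5.00 TPM and Sox8 25.5 TPM in tumor 5, against 0.285 and 0 TPM in tumor 8. The 7 mice still hold tumor 8, low in both genes and in epithelial genes. Tumor 7, the highest of these mice in Ccl20 at 25.0 TPM, had 7.36 TPM of Sox8. Relb with Tnfrsf11a was at 0.69 over the 8 mice and 0.54 over the 7, and Sox8 with Clu at 0.63 and 0.46. Tnfsf11 was inverse to Sox8 (-0.71) and to Ccl20 (-0.67) over the 8 mice, where Pearson's r was -0.66 and -0.51. Its rho of 0.69 with Spib was not matched by Pearson's r, which was 0.10.

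**Figure D3:**
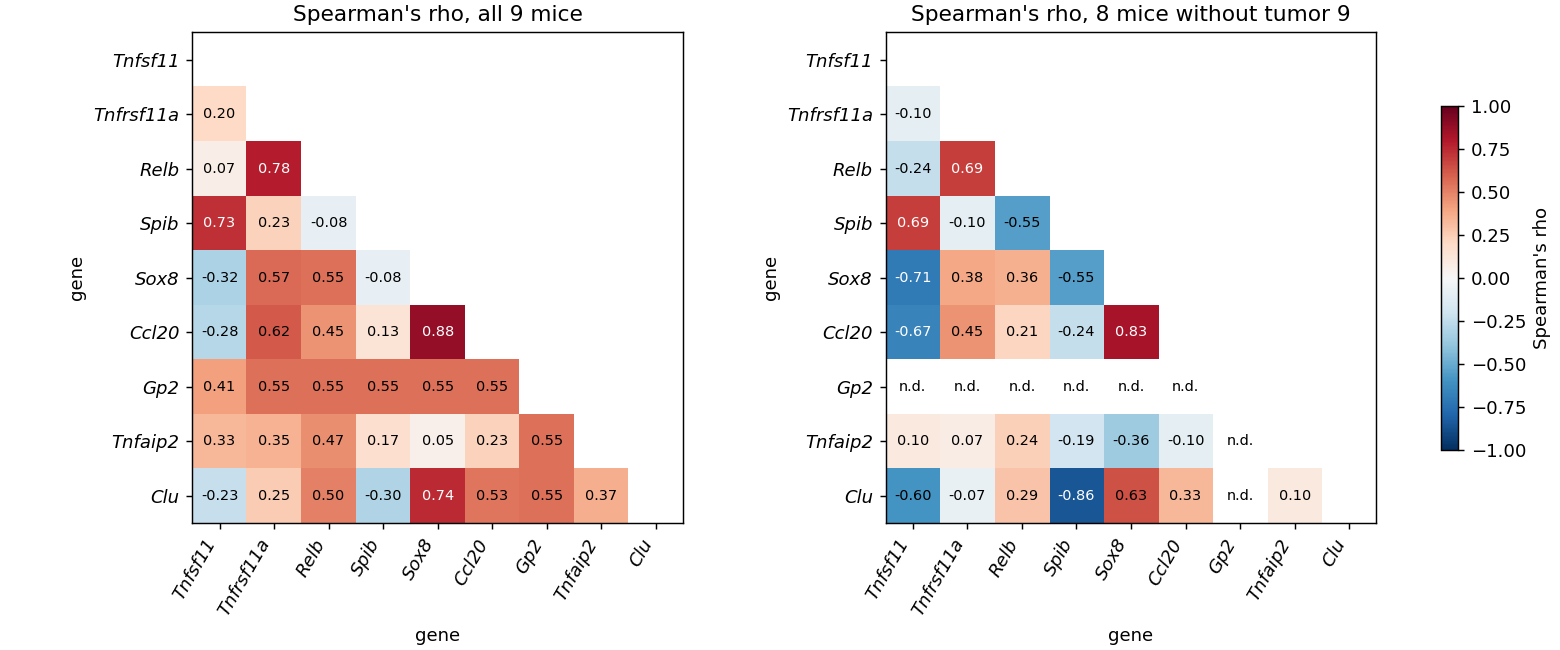
Spearman's rho of each pair of the 9 genes over all 9 mice (left) and over the 8 mice without tumor 9 (right), red for positive and blue for negative, n.d. where Gp2 is 0 in every mouse. Of the 28 pairs without Gp2, 22 are positive on the left and 14 on the right.

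The likeness to Spib was set against all genes. A rho of 0.6 or more to Spib was reached by 6.46% of 16801 genes over 9 mice, by 8.79% over the 8 mice without tumor 9 and by 11.3% over the 7 mice without tumors 2 and 9. Of the 7 other members with a mean of 1 TPM, only Tnfsf11 reached it in each of these, and 1 of 7 genes is no result about the members beside these shares. The 7 B lymphocyte genes with that mean (Cd79a, Cd79b, Ms4a1, Pax5, Pou2af1, Cr2 and Cd22) all reached it over 9 and over 8 mice, with a rho between 0.62 and 0.81 over the 8 mice. Over the 7 mice 6 of the 7 did, all but Ms4a1 at 0.43. Many of these ranks rest on low values. Spib was under 1 TPM in 6 of the 12 tumors, Pax5 in 10, Cr2 and Ms4a1 in 9 each and Cd79a in 6. Pou2af1 was under 1 TPM in 5, Cd79b in 3 and Cd22 in 1. Ms4a1 reached the mean of 1 TPM only through tumor 9. The order of mice at such levels is uncertain, as read counts were not used. A rho of 0.6 or more to Spib was not particular to B lymphocyte genes. Of the 5 T lymphocyte genes 1 reached it over 9 and over 8 mice and 4 over the 7, where Cd3e, Cd3d and Cd8a were at 0.86 and Cd3g at 0.96. Of the 5 macrophage genes none did over 9 or 8 mice and 3 did over the 7, Csf1r at 0.86, Cd68 at 0.82 and Adgre1 at 0.64. Of the 6 epithelial genes none did, and over the 8 mice they lay between -0.95 and -0.48, and over the 7 mice between -0.93 and -0.21.

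The 5 genes most like Spib by Spearman's rho over 9 mice were Rac2 (1.00), Nostrin and Hscb (both 0.98), and Agap2 and Cd52 (both 0.97). Without tumor 9 the leading genes included Efcab2 and Rac2 (both 1.00), and Agap2 and Nostrin (both 0.98). By Pearson's r over 9 mice, which tumor 9 dominates, the first 5 were Cr2 and Gfi1b (both 0.98), Pnpla8 (0.98), Nostrin and Camk2a (both 0.97). Cr2 encodes the complement receptor of B lymphocytes and follicular dendritic cells, and was at 1267 TPM in tumor 9 and at most 7.89 TPM, in tumor 2, elsewhere.

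Genes of M cells outside the group were followed as a list of 12, of which 10 had a mean of 1 TPM. In tumor 9, 9 of these 10 had their highest value, against 14.2% of all genes, and 6 lay at least 2 above the next tumor, against 2.04%. The 6 were Ccl9, Pglyrp1, Prnp, Ctsh, Ccl6 and Esrrg. Esrrg, like Ccr6, Ccl19, Ms4a1, Siglech, Vil1 and Aire in the other lists, reached the mean of 1 TPM only through tumor 9, so its place in these counts was set by that value. The median difference between tumor 9 and the mean of the other 8 mice was 3.34 on the log2(TPM + 1) scale, against -0.20 over all 16802 genes. Esrrg, which encodes a nuclear receptor that acts upstream of Sox8 in M cells, was at 11.7 TPM in tumor 9 and at most 2.02 TPM, in tumor 12, elsewhere. Ccl9 was at 1353 TPM against at most 70.1 TPM, and Pglyrp1, a peptidoglycan recognition protein, at 3014 TPM against at most 728 TPM.

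The prion protein gene Prnp was at 499 TPM in tumor 9 against at most 91.2 TPM. The exception among the 10 was Anxa5, at 311 TPM in tumor 9 inside the 94.2 to 794 TPM of the others. Scg5, at 1.74 TPM, and Atoh8, at 0.211 TPM in tumor 9, did not reach the mean. Several genes of the list, among them Aif1, Ccl6, Ccl9 and Rac2, are also expressed by myeloid cells. The 5 macrophage genes Cd68, Adgre1, Csf1r, Mrc1 and Cd163 summed to 352 TPM in tumor 9, inside the 80.1 to 634 TPM of the others, and none was highest in tumor 9.

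**Figure D4:**
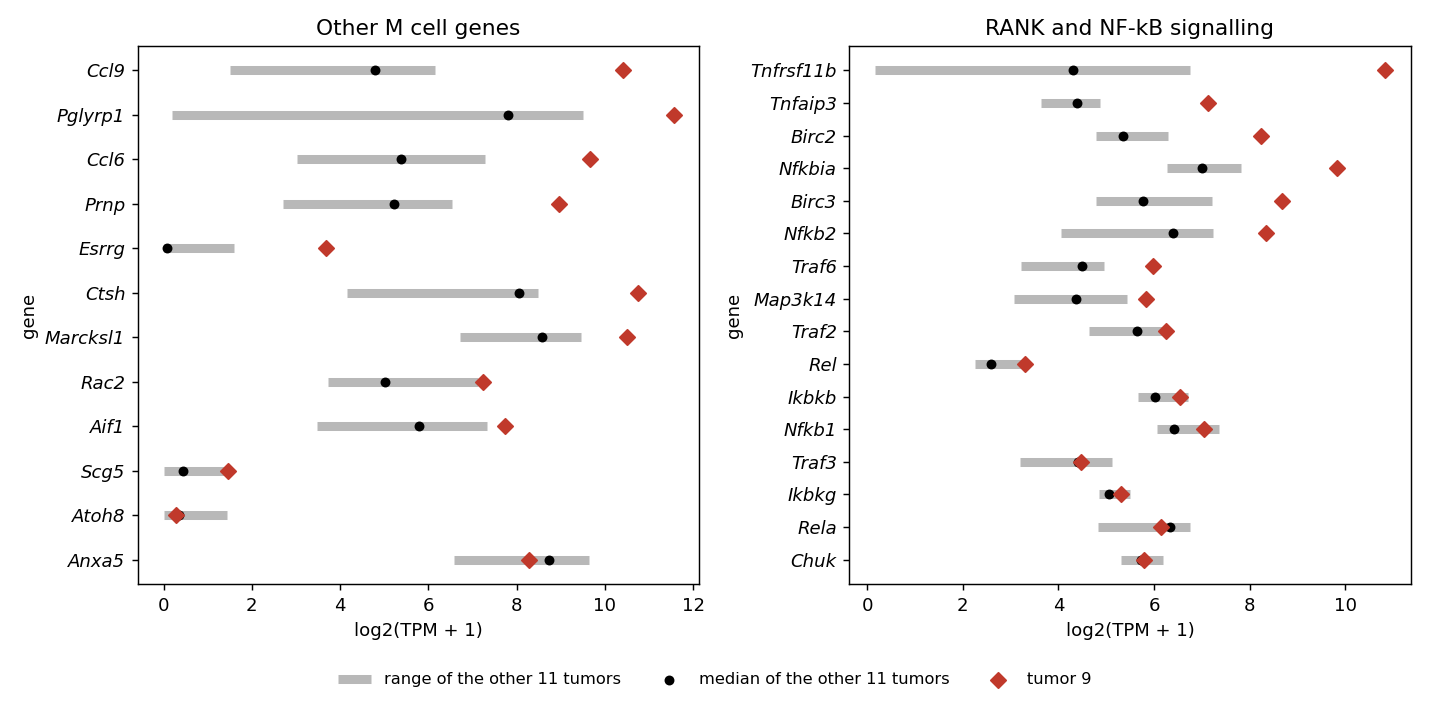
Levels of 12 other M cell genes (left) and 16 RANK and NF-kB signalling genes (right) as log2(TPM + 1) (x axis), for tumor 9 (red diamond) and as the range (grey bar) and median (black point) of the other 11 tumors. Tumor 9 lies beyond the bar most clearly for Tnfrsf11b, at 1815 against at most 106 TPM, and for Ccl9, at 1353 against at most 70.1 TPM.

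The signalling chain between RANK and its targets was followed in 16 genes, all with a mean of 1 TPM. In tumor 9, 10 of the 16 were highest, against 14.2% of all genes, and 3 lay at least 2 above the next tumor, against 2.04%, namely Tnfrsf11b and the NF-kB inhibitors Nfkbia and Tnfaip3. Nfkbia was at 904 TPM against at most 223 TPM, and Tnfaip3 at 139 TPM against at most 28.2 TPM. The non-canonical partner of Relb, Nfkb2, was at 323 TPM against at most 149.5 TPM, and the kinase gene Map3k14 at 55.7 TPM against at most 42.3 TPM. Birc2 was at 300.3 TPM against at most 77.2 TPM and Birc3 at 404 TPM against at most 148 TPM. Traf2, at 75.5 TPM against at most 73.5 TPM, and Rel, at 8.82 TPM against at most 8.33 TPM, were highest by little. The canonical subunit Rela, at 69.5 TPM, and the kinase gene Chuk, at 54.1 TPM, were exceeded by other tumors.

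Chemokines and defence genes that NF-kB can induce went in different directions. Icam1, at 448 TPM, was highest in tumor 9, with at most 121 TPM elsewhere. Cxcl1, Cxcl2 and Cxcl5 were at 3.01, 0.232 and 0.474 TPM in tumor 9, lower than in every tumor but tumor 2. The lipocalin Lcn2 was at 243 TPM, above only tumors 2 and 8, where the highest tumor had 7824 TPM. Of the 11 genes of this list, 4 were highest in tumor 9, against 14.2% of all genes. Of the 4, Cxcl16 was at 236 TPM against at most 221 TPM and Il17rc at 34.83 TPM against at most 34.77 TPM, both by little. The others were Icam1 and Ccr6. Ccr6 was at least 2 above the next tumor, as 2.04% of all genes were, and it reached the mean of 1 TPM only through tumor 9.

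Markers of other cell types that use these genes moved with tumor 9 in part. The median B lymphocyte gene was at 166 TPM for tumor 2, 15.1 TPM for tumor 9, 1.40 TPM for tumor 8, and 1.32 TPM or less in the rest. Their sum in tumor 9 was 1398 TPM, of which Cr2 gave 1267 TPM, while Cd79a was at 41.6 TPM and Pax5 at 3.27 TPM. Of the 7 genes with a mean of 1 TPM, 2 were highest in tumor 9, Cr2 and Ms4a1, against 14.2% of all genes. Ms4a1, which reached that mean only through tumor 9, was at 11.7 TPM there and at most 2.18 TPM, in tumor 2, elsewhere. Fcer2a, under that mean, was at 5.17 TPM in tumor 9 and at most 0.419 TPM elsewhere. Cd79a, Cd79b, Pax5, Pou2af1 and Cd22 were higher in tumor 2. In tumor 2, Cd79a was at 609 TPM and Pax5 at 63.0 TPM beside 67.4 TPM of Spib. Spib was thus far above Cd79a in tumor 9 and far below it in tumor 2. Against Ms4a1 of the same list Spib was far above in both tumors, so this order depends on the gene. The part of B lymphocytes in the Spib values was not tested.

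T lymphocytes are a source of RANKL, and 4 of 5 T lymphocyte genes were highest in tumor 9, against 14.2% of all genes. They summed to 81.7 TPM there, to 65.4 TPM in tumor 8 and to between 3.26 and 19.9 TPM in tumors other than 2, 8 and 9. Siglech, a marker of plasmacytoid dendritic cells, was at 29.0 TPM in tumor 9 and at most 3.33 TPM elsewhere, and Ly6d and Ccr9 of the same list were also highest there, at 429.6 against at most 132 TPM and at 1.76 against at most 0.946 TPM. Bst2, Tcf4, Irf8 and Klk1 were not. The part of these cells in the values of Spib and the other genes was not tested.

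Other epithelia with M cell genes were followed by their own markers. The intestinal genes Cdx2 and Fabp2 were at 0 in all 12 tumors, and Cdx1 was at 1.14 TPM in tumor 9 and 0 elsewhere. Vil1 was highest in tumor 9, at 11.5 TPM against at most 2.65 TPM, while Lgals4, at 6.57 TPM, and Cdh17, at 0.665 TPM, were not. Of the pancreatic acinar genes, another site of Gp2 expression, Cela2a, Pnlip and Ctrb1 were at 0 in all 12 tumors and none of Cpa1, Cela1 and Cel was highest in tumor 9. Of the thymic epithelial genes, Aire, which RANK induces in the thymic medulla, was at 69.6 TPM in tumor 9 and at most 6.81 TPM, in tumor 11, elsewhere. Foxn1 was at 4.64 TPM in tumor 9 and at most 0.0563 TPM elsewhere, Fezf2 was at 0.397 TPM and listed at 0 elsewhere, and Psmb11 was at 0 in tumor 9. Cd80, the other gene of that list, was at 2.97 TPM in tumor 9, inside the 0.340 to 7.46 TPM of the others.

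**Figure D5:**
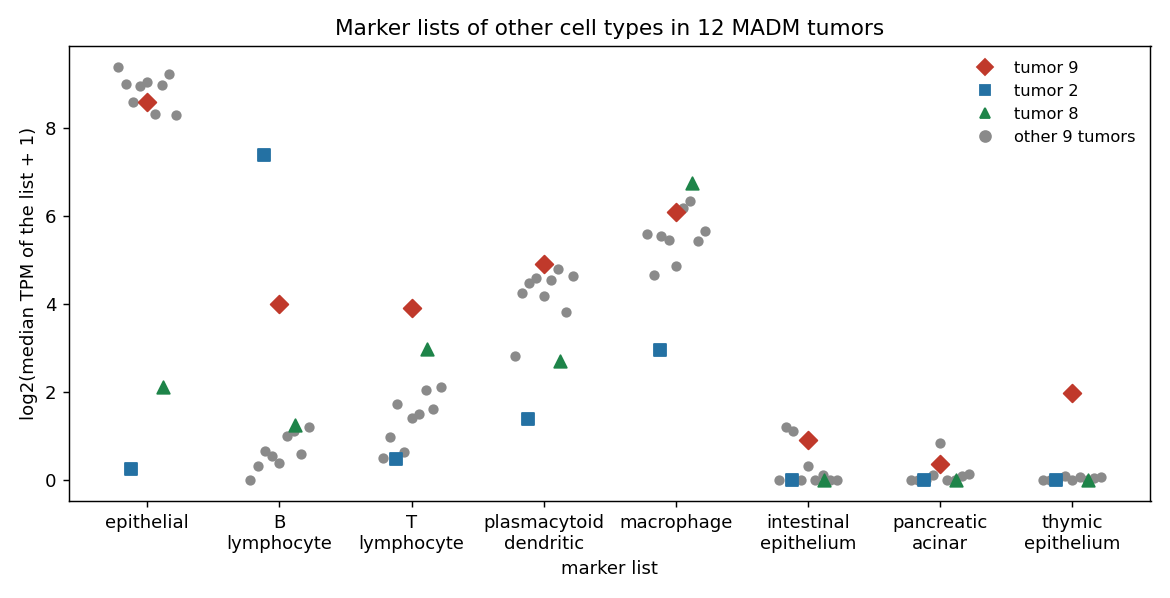
Median TPM of 8 marker lists (x axis) in 12 tumors, as log2(median TPM + 1) (y axis). Tumor 9 has a median of 387 TPM in the epithelial list, inside the 313 to 672 TPM of 9 other tumors, although 5 of the 6 genes are lower in it than in those 9, and is second to tumor 2 in the B lymphocyte list. Its median of the thymic epithelial list, 2.97 TPM, is the value of Cd80, which was higher in other tumors.

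Of the mammary genes around RANK signalling, the progesterone receptor gene Pgr was at 0.0735 TPM in tumor 9 and at most 0.207 TPM, in tumor 4, elsewhere. None of the 6 genes with a mean of 1 TPM was at least 2 above the next tumor in tumor 9, and Stat5a alone was highest there, at 53.8 TPM against at most 51.2 TPM. Prlr, the prolactin receptor gene, was at 0.483 TPM in tumor 9, near the 0.411 TPM of tumor 2 and the 0.359 TPM of tumor 8, where the other 9 had 9.58 TPM or more. Of 5 milk and alveolar genes with a mean of 1 TPM, Csn2 was at least 2 above the next tumor, at 3323 TPM against at most 127 TPM, where 2.04% of all genes were. Csn1s1 was highest in tumor 9 as well, at 1855 TPM against at most 1051 TPM, which made 2 of 5 against 14.2% of all genes. The median difference of the 5 was 3.99 on the log2(TPM + 1) scale, and Csn3 lay at 26.5 TPM, below all tumors but 2 and 8.

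The stretch just before the start of Spib and Ccl20, the members furthest apart between tumor 9 and the rest, is shown because factors of the group are known to act on such regions. RefSeq promoters of GRCm38.p6 were matched for 7 of the 9 genes, Relb and Clu excepted. Capitals mark GAGGAA, the PU box core to which Spi factors bind, on either strand.

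Spib, chr7:44532072-44532321, minus strand: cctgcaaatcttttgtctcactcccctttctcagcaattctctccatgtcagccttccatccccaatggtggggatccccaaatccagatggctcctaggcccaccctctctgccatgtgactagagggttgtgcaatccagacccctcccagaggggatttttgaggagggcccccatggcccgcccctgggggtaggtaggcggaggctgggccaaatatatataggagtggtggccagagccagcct
Ccl20, chr1:83116516-83116765, plus strand: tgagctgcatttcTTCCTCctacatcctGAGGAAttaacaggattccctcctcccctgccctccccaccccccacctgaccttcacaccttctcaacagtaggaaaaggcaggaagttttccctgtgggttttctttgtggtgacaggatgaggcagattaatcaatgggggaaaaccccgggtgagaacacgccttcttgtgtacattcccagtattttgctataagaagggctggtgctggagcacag

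In these 250 bases GAGGAA was present in 1 of the 7 promoters, that of Ccl20, where it starts at positions -237 and -222 from the start of the gene. Of all 32851 promoters 23.3% hold it. The letters GGANTTTCC, a form of the kB site searched on both strands, were in 1 of the 7, Tnfaip2, at position -87 from the RefSeq start, which lies inside the longer GENCODE gene. Of all promoters 1.07% hold them. The motifs do not overlap, and a match describes the letters alone.

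The genes that lie beside Spib and Ccl20 were examined after their values had been seen. Of 22 coding genes with a mean of 1 TPM within 400 kb of Spib, 3 were at least 2 above the next tumor in tumor 9 and 9 were highest there, beside 2.04% and 14.2% of all genes. Of the 3, Il4i1 reached the mean of 1 TPM only through tumor 9, so its place in these counts was set by that value, and nothing is read from them. Pold1, whose nearer end lies 0.675 kb away, was at 147.5 TPM against at most 112 TPM, and Mybpc2, 1.34 kb away on the other side, at 15.1 TPM against at most 8.31 TPM. The 3 genes lay 280.2 kb to 303 kb away and were Atf5, at 662 TPM against at most 97.8 TPM, Il4i1, at 2036 TPM against at most 1.30 TPM, and Tbc1d17, at 263 TPM against at most 38.3 TPM. Nup62, which lies among them, was at 72.7 TPM in tumor 9, inside the 41.5 to 119 TPM of the others. Within 400 kb of Ccl20 there were 2 such genes, Mff and Agfg1, and neither was highest in tumor 9.

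Among all genes Il4i1, which encodes an amino acid oxidase of immune cells, had the largest step of tumor 9 above the next tumor, 9.79 on the log2(TPM + 1) scale, and Ccl20 came second with 8.59. Spib was number 20 in this order. The next 8 after Ccl20 were Gm10851, Snap91, Ptgds, Fcamr, A230065H16Rik, Gng13, Fgf21 and Dsg1b, each under 4 TPM in every other tumor and between 221 and 952 TPM in tumor 9. Gm10851, Fcamr, Gng13, Fgf21 and Dsg1b were under 1 TPM in every other tumor. They therefore reached the mean of 1 TPM only through tumor 9, as Il4i1 did, and their place in this order was set by that value.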

How the data were processed

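RNA of 12 tumors from 9 mice was sequenced from poly(A)-selected, stranded libraries as paired reads of 75 bases. The authors trimmed adapters, aligned reads to the GRCm38 transcriptome with HISAT and deposited TPM per gene from StringTie 2.1.6, as the methods and the submitters' processing notes give it. Columns were matched to tumors by the animal number and tumor number of the labels. Read counts were not used here, so depth and counting error are unknown.

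TPM were put on the log2(TPM + 1) scale and tumors of 1 mouse were averaged, which gave 9 mice, taken as the unit for means, SD and rho. Genes with a mean of 1 TPM or more over mice were kept (16802). Tumor 9 was set against the highest of the other 11 tumors with a gap of 2, which is 4-fold on TPM + 1, and genes were said to go together at a Spearman's rho of 0.6 or more. The members, the gene lists and the tests were chosen with earlier results of these data known, so no p-value was computed. Named were the 9 genes, the genes of the lists, the 5 genes most like Spib by each of 3 measures and the 10 genes with the largest gap of tumor 9. Some genes of these lists are not reported here, and the B lymphocyte list was computed on its remaining 8 genes. The genes beside Spib and Ccl20, the B lymphocyte relations over 8 and 7 mice, the pairs without Gp2 and Pearson's r over pairs were added after the data had been seen. Coordinates are from GENCODE vM21 on GRCm38, and promoters from RefSeq on GRCm38.p6. The scripts were tested on simulated data with planted gaps and relations. The software was scipy 1.17.1 and pandas 2.3.3 under Python 3.11.15. The alternatives were a pseudocount of 0.1, tumors in place of mice as units, rescaling after removal of mitochondrial genes, other filters, a gap of 1, a rho of 0.5, and leaving out mice.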

Additional observations from a re-analysis of the deposited data

Results flagged for a closer look

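In each of 24 series of 9 mouse values on the log2(TPM + 1) scale (the 9 genes and the medians of 15 gene lists), the highest and the lowest mouse were compared with their nearest neighbour by Dixon's ratio. A mouse stood apart in 9 of them. Chance marks about 1 in 20 series that were chosen without their values, a rate that does not apply here, since the genes and the lists were chosen with earlier results known.

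The mouse of tumor 9 stood above the others for Spib, at 11.97 with the next mouse at 6.10, for Ccl20, at 13.29 with the next at 4.70, and for Gp2, at 2.48 with the others at 0. These 3 values are a description, as the genes were chosen for tumor 9, and the ratio of Gp2 is fixed by its zeros. The mouse of tumor 9 also stood above them in the median of the thymic epithelial genes, at 1.99 with the next at 0.091, where the median in tumor 9 is the value of Cd80, a gene that was higher in other tumors. The mouse of tumor 8 stood above the others for Tnfsf11, at 4.66 with the next at 1.79.

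The mouse of tumor 2 stood below the others in 3 list medians. These were the NF-kB target chemokines and defence genes, at 0.46 with the next at 4.07, the macrophage genes, at 2.96 with the next at 4.86, and the chemokine ligands, at 0.95 with the next at 3.40. The mouse of tumor 6 stood above the others in the pancreatic acinar genes, at 0.69 with the next at 0.33, a level under 1 TPM.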

How the results depend on the processing

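The count of genes past the gap in tumor 9 was 6 and stayed at 6 or 7 under each alternative run. The share of all genes past it went from 2.04% to 4.45% with a gap of 1 and to 1.23% among genes with a median of 1 TPM or more. No share over pairs of all genes was computed for the number of pairs going together. That number was 5 over 9 mice. It was 16 at a rho of 0.5, where 7 of the added pairs hold Gp2, 2 over the 7 mice without tumors 2 and 9, and 4 over the 8 mice without tumor 9. With 1 mouse left out in turn it ran from 4 to 8, with 8 pairs without the mouse of tumor 6 or that of tumor 7. The median rho of 0.43 became 0.28 with each tumor as a unit, 0.29 without the pairs of Gp2, which was added after seeing the data, 0 without tumor 9 and -0.036 without tumors 2 and 9, and ran from 0 to 0.48 with 1 mouse left out, the 0 being that without tumor 9. The cause of these differences was not tested. The difference of tumor 9 from the other mice was above 0 in all 99 alternative values of the 9 genes, and 97 moved by less than 1 SD. That of Gp2 went from 2.48 to 5.54 with a pseudocount of 0.1. No paired analysis was possible because the 12 tumors form a single group. Without read counts, values near 0 TPM cannot be told from absence.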
